A study of Mus musculus with 4 samples.

Results

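The genes described here are Yap1 and Wwtr1, which encode the transcriptional co-activators YAP and TAZ, the 4 TEAD transcription factor genes (Tead1 to Tead4) and those of the Vestigial-like cofactors Vgll3 and Vgll4. They were taken by symbol from the deposited table, and all 8 were found among its 39179 genes. The samples were described as primary smooth muscle cells of the mouse aorta, which contract the vessel wall. The samples were taken 18 days after tamoxifen in both groups, and their RNA was sequenced. Markers of macrophages, adipocytes, endothelial cells, fibroblasts and Schwann cells were also counted in every library, as given below. There were 2 libraries from Sm-Yap/Taz-KO mice, in which Yap1 and Wwtr1 were inactivated in smooth muscle, and 2 from wild-type mice. The labels give no strain, age, sex, Cre driver, deleted exons or pooling, nor which animal each library came from. The p-values therefore rest on the spread between these libraries alone, and that spread may be technical.

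YAP and TAZ are the effectors of the Hippo pathway and do not bind DNA themselves. In the nucleus they bind TEAD proteins, which recognise the short DNA element known as the MCAT motif, found in front of many muscle genes. The LATS kinases phosphorylate YAP and TAZ, after which 14-3-3 proteins hold them in the cytoplasm or they are degraded. Vestigial-like proteins bind the same TEAD surface through their Tondu domain, and VGLL4 competes with YAP for it.

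The TEAD motif CATTCC, searched on both strands (GGAATG on the other), stood in the promoters of 5 of the 6 genes that matched by symbol in the RefSeq promoter table (GRCm38.p6; not Tead1 and Tead4). Each promoter covers 250 bases before and 50 after an annotated start site. The motif was in 16.6% of all 27025 genes of that table and in 14.7% of its 32851 promoters. The sequences are shown because the motif in them was common to these 5 genes. They are written 5′ to 3′ on the strand of the gene, with the motif in capitals.
Yap1, chr9:8004684-8004785, minus strand: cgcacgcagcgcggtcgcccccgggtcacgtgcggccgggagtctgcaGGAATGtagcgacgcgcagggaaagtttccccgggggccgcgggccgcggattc
Wwtr1, chr3:57575993-57576094, minus strand: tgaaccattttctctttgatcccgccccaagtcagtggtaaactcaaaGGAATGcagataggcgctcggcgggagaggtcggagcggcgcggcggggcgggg
Tead3, chr17:28350934-28351035, minus strand: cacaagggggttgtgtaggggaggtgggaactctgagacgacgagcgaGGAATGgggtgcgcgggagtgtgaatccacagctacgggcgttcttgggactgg
Vgll3, chr16:65815078-65815179, plus strand: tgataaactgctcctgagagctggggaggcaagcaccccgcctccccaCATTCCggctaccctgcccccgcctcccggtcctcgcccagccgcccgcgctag
Vgll4, chr6:114969232-114969333, minus strand: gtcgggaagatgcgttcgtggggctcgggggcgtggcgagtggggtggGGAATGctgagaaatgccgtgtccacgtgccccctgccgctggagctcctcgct

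The motif began 141 bases upstream of the start site in Yap1, 82 in Vgll4 and 63 in Vgll3. In Wwtr1 a single match lay 136 and 170 bases upstream of its 2 annotated start sites. Tead3 had 3 annotated promoters, of which 1 held no match, 1 held the match printed above at 182 bases upstream, and 1 held 3 matches. A pair of these stood 3 bases apart, 123 and 114 bases upstream of that start site and inside an annotated exon of the gene.
Tead3, chr17:28350701-28350730, minus strand: ccgggctCATTCCgtaCATTCCggccatcc
The promoter of Tead2 held no match in this window. The search is a description of letters and not of binding, and genes with several promoters had more sequence in which a match could fall.

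**Figure D1:**
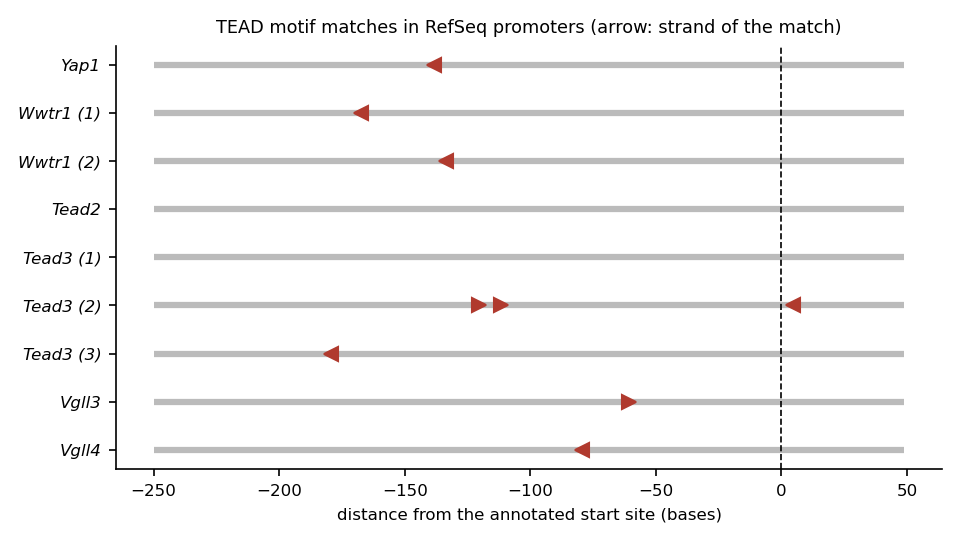
Positions of CATTCC (arrows to the right) and its reverse complement (arrows to the left) in the promoters of 6 genes, as distance in bases from each annotated start site (dashed line). Grey lines are the searched windows, numbered where a gene has several; 7 of the 9 windows hold at least 1 match, most of them upstream of the start site.

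The table held normalized read counts, whose sums over all genes ran from 13279332 to 13861333 in the knockout and from 14235444 to 14519178 in the wild-type libraries. The estimated reads on genes ran from 11810000 to 12290000 and from 15620000 to 16810000. Smooth muscle markers were present in every library, but their summed count was 145978 to 191167 in the knockout and 452152 to 476970 in the wild type, and 8 of 10 fell. All 9 macrophage markers matched rose (sum 12203 to 16109 against 1143 to 3248), as did 8 of 10 adipocyte (28971 to 29550 against 3154 to 9983), 5 of 10 endothelial (11031 to 12775 against 4695 to 7084), 3 of 10 fibroblast (61877 to 72805 against 21086 to 40435) and 1 of 6 Schwann cell markers (960 to 999 against 287 to 639). Fell and rose here count only markers that passed the test given below, which called 6.7% of all tested genes lower and 9.58% higher. By sign alone, all 10 smooth muscle markers were lower in the knockout. All 10 adipocyte, 10 endothelial, 10 fibroblast and 6 Schwann cell markers were higher by sign. The 5 lymphocyte markers summed to 26 to 39 and 9 to 10 and were too low to test. No matched marker was at 0 in all 4 libraries. These values stand beside every difference given here. In such bulk libraries fewer cells of a type and less RNA per cell cannot be told apart, and the part of the cell mix in the results was not tested.

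Comparing the 2 groups asked how the transcripts of the deleted co-activators and of their DNA-binding partners and cofactors differed. Transcripts of Yap1 and Tead3 fell in the knockout. Wwtr1 and Vgll4 were lower in both knockout libraries and Tead2 and Tead4 higher, but none of these passed the test. Tead1 ranged only from 3251 to 3473 normalized counts over the 4 libraries, and Vgll3 was low in 1 knockout library only. All 8 genes passed the filter on low counts (a mean of 10 or more). At a Benjamini-Hochberg adjusted p under 0.05 over the 15058 tested genes, limma called 2 of the 8 lower and 0 higher, where it called 6.7% of all tested genes lower and 9.58% higher. At an unadjusted p under 0.05 there were 6 of the 8, and 32.5% of all tested genes. Without overlap between the groups, 4 genes were lower and 2 higher, beside 32.1% and 30.7% of all tested genes. The median log2 fold change of the 8 was -0.47, and that of all tested genes -0.023.

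**Figure D2:**
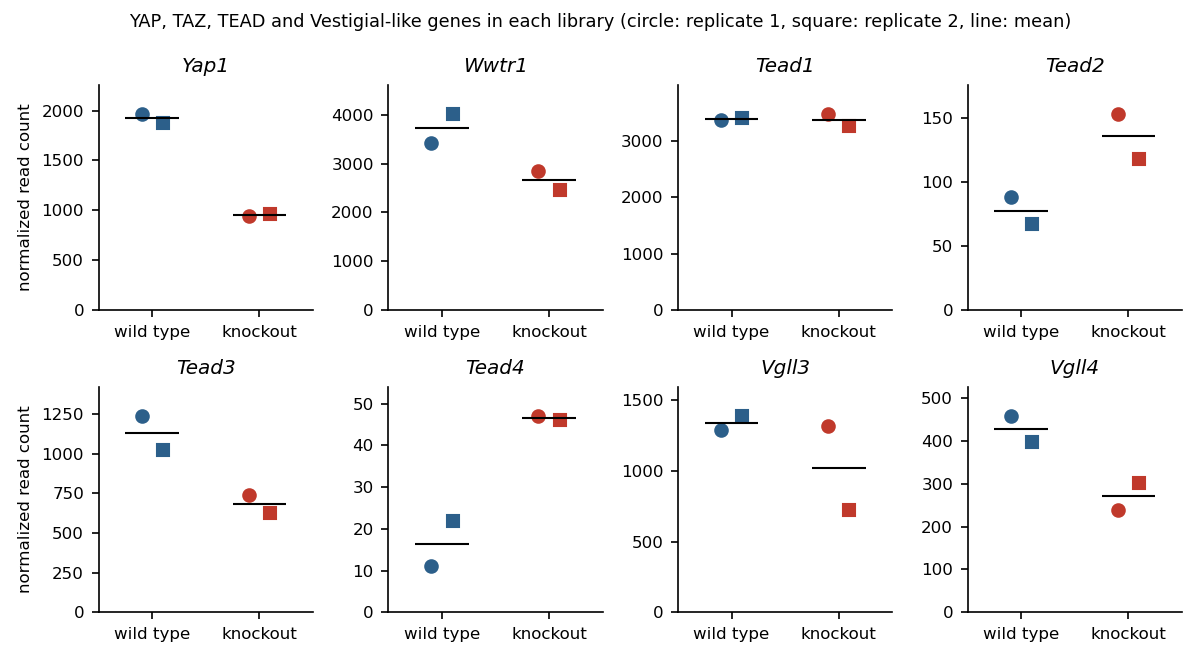
Normalized read counts (y axis, from 0) of the 8 genes in the 2 wild-type (blue) and 2 knockout (red) libraries, circles for replicate 1 and squares for replicate 2, with lines at the group means. Yap1, Wwtr1, Tead3 and Vgll4 lie lower in both knockout libraries, Tead2 and Tead4 higher, and Tead1 and Vgll3 overlap.

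Yap1 (ENSMUSG00000053110, GRCm38 chromosome 9, 7931999 to 8004596, minus strand) encodes the co-activator YAP and was one of the 2 genes targeted. Its normalized counts were 1966 and 1877 in the wild-type libraries, against 947 and 962 after the deletion. Each pair lay close together and the pairs far apart. The knockout mean of 954.5 ± 10.6 (SD, n = 2) was 49.7% of the wild-type mean of 1921.5 ± 62.9. The log2 fold change was -1.01 (SE 0.10, 95% interval -1.26 to -0.76, limma adjusted p = 0.00802), and 5.53% of all tested genes had a lower one. For comparison, the 10 smooth muscle markers had a median log2 fold change of -0.99. The call was lost without the filter on low counts (limma adjusted p = 0.0815), and without the trend of variance with intensity (0.0745). Fits without wild-type replicate 1, knockout replicate 1 or knockout replicate 2 called no gene at all, and in such fits the lone library of a group is assumed to vary like the other group. The log2 fold change of Yap1 in these fits was -0.97 to -1.02.

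Wwtr1 (ENSMUSG00000027803, chromosome 3, 57455649 to 57575910, minus strand), the gene of TAZ and the other target, had normalized counts of 3423 and 4016 in the wild-type libraries and of 2848 and 2466 in those of the knockout. Both knockout libraries lay below both wild-type libraries, with a smaller gap than for Yap1. The knockout mean was 71.4% of the wild-type mean, 2657 ± 270.1 against 3719.5 ± 419.3 (SD, n = 2). The log2 fold change of -0.48 (SE 0.13, 95% interval -0.80 to -0.17) did not pass, at a limma adjusted p of 0.0553. Of 13 alternative settings, Wwtr1 passed only after quantile normalization (limma adjusted p = 0.0483). That setting moved the median log2 fold change of all tested genes from -0.023 to -0.104. Reads outside a deleted part of a gene are counted too, as are reads from any other cell types in the libraries. The remaining counts of Yap1 and Wwtr1 therefore do not measure the remaining protein, and the part of each source was not tested.

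Because the genes differ in length, levels were compared as normalized count per kilobase of merged exon. On this scale Wwtr1 stood at 716.3 and 840.3 in the wild type and 595.9 and 516.0 in the knockout. The level of Yap1 was 212.4 and 202.8 in the wild type and 102.3 and 103.9 in the knockout. Wwtr1 was thus the more abundant transcript in every library. The ratio of the Wwtr1 level to the Yap1 level was 3.37 and 4.14 in the wild type and 5.83 and 4.97 in the knockout. The groups did not overlap, and the mean ratio was 1.44 times as high in the knockout. With 2 libraries against 2, an exact two-sided permutation test cannot go below p = 0.333, so this and the other ratios are values without a test. Such a ratio is formed within a library and does not depend on how the libraries were scaled. The size of the ratio depends on the length used: with the longest annotated transcript its means were 2.18 (wild type) and 3.13 (knockout), since the merged exons of Yap1 span 9257 bases and its longest transcript 5282.

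Among the TEAD genes only Tead3 passed the test. Tead1 (ENSMUSG00000055320, chromosome 7, 112679318 to 112906807, plus strand), which encodes TEF-1, had normalized counts of 3365 and 3405 in wild-type and of 3473 and 3251 in knockout libraries. The knockout libraries lay on either side of the wild-type ones. The log2 fold change was -0.01 (SE 0.10, limma adjusted p = 0.955). Its 95% interval was -0.25 to 0.23, which rests on the spread between these libraries alone. Tead3 (ENSMUSG00000002249, chromosome 17, 28331671 to 28350817, minus strand) had normalized counts of 1235 and 1020 in wild-type libraries, and of 740 and 624 in knockout ones. All knockout values were below all wild-type values, with 682 ± 82 against 1127.5 ± 152.0 (SD, n = 2). The log2 fold change of Tead3 was -0.72 (SE 0.15, 95% interval -1.09 to -0.35, limma adjusted p = 0.029). This call was lost without the filter on low counts (limma adjusted p = 0.119), without the trend (0.117) and without wild-type replicate 2 (0.0837), where the log2 fold change was -0.86. The other fits with 1 library left out, which called no gene at all, gave -0.59 to -0.85.

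Tead2 (ENSMUSG00000030796, chromosome 7, 45215753 to 45233644, plus strand) was low, with normalized counts of 88 and 67 in wild-type and 153 and 118 in knockout libraries. Both knockout values were the higher, with a log2 fold change of 0.80 (SE 0.27, 95% interval 0.14 to 1.46) that did not pass, at a limma adjusted p of 0.0998. Tead4 (ENSMUSG00000030353, chromosome 6, 128224288 to 128300823, minus strand) was the rarest of the 4, with 11 and 22 normalized counts in wild-type and 47 and 46 in knockout libraries. Its log2 fold change of 1.52 (SE 0.48, 95% interval 0.34 to 2.69) missed it at a limma adjusted p of 0.0845. Tead4 rested on few reads, estimated at 12 and 25 in the wild-type and 42 and 41 in the knockout libraries. The exact 95% Poisson intervals, which cover counting error only, were 30.3 to 56.8 and 29.4 to 55.6 for the knockout and 6.2 to 21 and 16.2 to 36.9 for the wild type. The interval of wild-type replicate 2 overlapped both knockout intervals, but these are in reads and not scaled for depth. The estimated size factor (reads per normalized count) was 1.1578 in that library and 0.8869 and 0.8897 in the knockout ones. This overlap therefore does not compare normalized levels. Neither Tead2 nor Tead4 passed in any alternative setting, with log2 fold changes of 0.61 to 0.99 and of 1.05 to 1.98.

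Summed per kilobase of merged exon, the TEAD genes stood at 453.4 and 423.0 in wild-type libraries and 411.2 and 369.9 in knockout ones, a mean ratio of 0.891. The makeup of this sum differed as well. Tead3 supplied 40.6% and 35.9% of it in the wild type and 26.8% and 25.1% in the knockout. The share of Tead1 was 54.7% and 59.3% in the wild type and 62.2% and 64.8% in the knockout. Tead2 made up 4.05% and 3.31% against 7.77% and 6.66%, and Tead4 0.674% and 1.45% against 3.18% and 3.46%. For all 4 shares the groups did not overlap, with either measure of length. By normalized count, 62.8% of all tested genes did not overlap. The shares are parts of the same sum and so not independent, and the mean level of Tead1 itself was 249.4 (wild type) and 247.8 (knockout). How far Tead1 led Tead3 in the wild type did depend on the measure of length. Per base of the longest transcript, the shares of Tead1 were 46.5% and 51.4% and those of Tead3 49.4% and 44.6%, so that the libraries overlapped. The level of Yap1 and Wwtr1 together was 2.05 and 2.47 times that of the TEAD genes in the wild type and 1.7 and 1.68 times in the knockout.

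**Figure D3:**
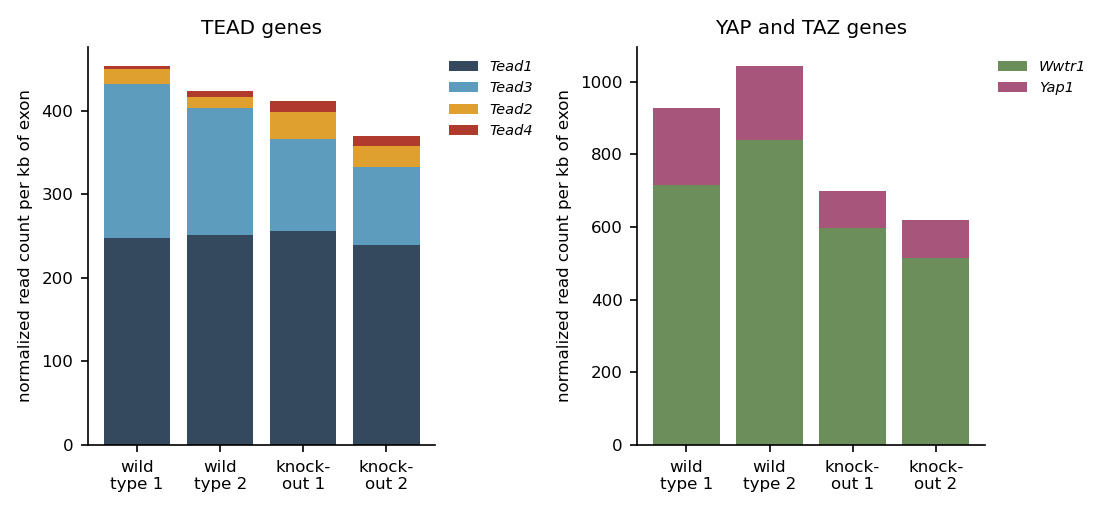
Stacked levels of the TEAD genes (left) and of Wwtr1 and Yap1 (right) in each library, as normalized read count per kilobase of merged exon, both axes from 0. The Tead3 part is smaller and the Tead2 and Tead4 parts are larger in the 2 knockout libraries, while the Tead1 part stays between 239.6 and 255.9.

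Vgll4 (ENSMUSG00000030315, chromosome 6, 114860628 to 114969994, minus strand), the TEAD cofactor that competes with YAP, had normalized counts of 457 and 397 in wild-type libraries, and of 239 and 302 in knockout ones. The groups did not overlap, and the knockout mean was 63.3% of the wild-type mean. The log2 fold change of -0.66 (SE 0.18, 95% interval -1.10 to -0.23) did not pass, at a limma adjusted p of 0.0559. Of 13 alternative settings, Vgll4 passed only after quantile normalization (limma adjusted p = 0.0363). The ratio of the Vgll4 level to that of Yap1 and Wwtr1 together was 0.0912 and 0.0705 in wild-type libraries and 0.0634 and 0.0903 in knockout ones, and here the groups overlapped. Relative to the summed TEAD level it was 0.187 and 0.174 against 0.108 and 0.151, without overlap.

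Vgll3 (ENSMUSG00000091243, chromosome 16, 65815257 to 65866368, plus strand), which also binds TEAD proteins, had normalized counts of 1288 and 1385 in wild-type libraries, and of 1314 and 726 in knockout ones. Knockout replicate 1 lay between the wild-type libraries and knockout replicate 2 far below them. The SD of its log2 values was 0.60 in the knockout, larger than for 87.9% of tested genes, and 0.07 in the wild type. Its log2 fold change of -0.45 (SE 0.27, 95% interval -1.11 to 0.21, limma adjusted p = 0.305) became -0.88 without knockout replicate 1 and -0.02 without knockout replicate 2. The smooth muscle marker sum was 191167 in knockout replicate 1 and 145978 in replicate 2, and its part in the Vgll3 values was not tested. Of the other Vestigial-like genes, Vgll2 had 9 and 6 against 2 and 5 counts and was below the filter, and Vgll1 was at 0 in all 4 libraries.

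**Figure D4:**
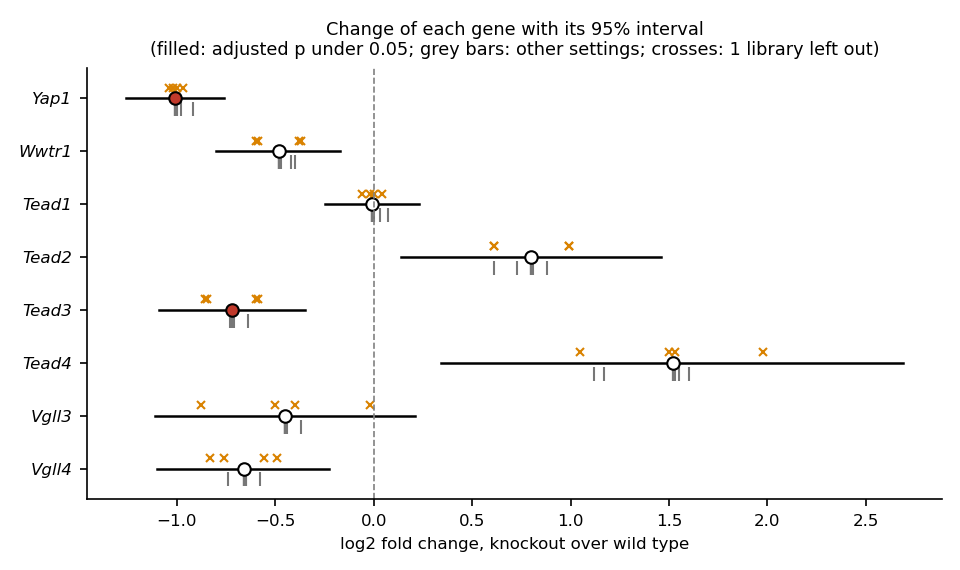
Log2 fold change of each gene, knockout over wild type (circles; filled where the limma adjusted p was under 0.05), with its 95% interval (lines), the values under 9 other settings (grey bars; 8 for Tead4) and with 1 library left out (orange crosses). Yap1 keeps within -1.04 and -0.92, whereas the crosses of Vgll3 spread from -0.88 to -0.02.

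Ordered by level per kilobase of merged exon, the wild-type means ran from Wwtr1 (778.3) through Tead1 (249.4), Yap1 (207.6), Vgll3 (188.1), Tead3 (167.9), Vgll4 (79.1) and Tead2 (16.2) to Tead4 (4.59). Of these neighbours, Vgll3 (181.3 and 195.0) and Tead3 (183.9 and 151.9) overlapped between libraries and the others did not. In the knockout the order was Wwtr1 (556.0), Tead1 (247.8), Vgll3 (143.6), Yap1 (103.1), Tead3 (101.6), Vgll4 (50.1), Tead2 (28.3) and Tead4 (12.9), where Vgll3, Yap1 and Tead3 overlapped. The middle of this order depended on the length used. By the longest transcript, the wild-type means were 791.9 for Wwtr1, 363.8 for Yap1, 339.7 for Tead1 and 327.5 for Tead3. Those of Vgll4 and Vgll3 were 194.3 and 190.7. In the knockout Tead1 (337.4) and Tead3 (198.1) stood above Yap1 (180.7), which was above both in the wild type. The knockout libraries of Tead3 (214.9 and 181.2) and Yap1 (179.3 and 182.1) overlapped. Vgll3 (145.5 in the knockout) lay below Tead3 in both groups. Wwtr1 came first and Tead2 and Tead4 last with either length. The levels per kilobase were above those of 95.9% of tested genes for Wwtr1, 85.7% for Tead1, 75.9% for Yap1 and 10.8% for Tead4.

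The genes could be told apart by sequence. Of the 36-base words in the annotated transcripts, Tead3 and Tead4 shared 24 with each other, out of 6865 and 3653, and no other pair of the 8 genes shared any. Words found in transcripts of any other gene made up 2.36% for Yap1, and less than that for the other 7. On the opposite strand, Gm20416 overlapped 1.25% of the exon length of Yap1 and Cd37 0.27% of that of Tead2, and no other gene overlapped the exons of the 8.

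The genes closest to Yap1 and Wwtr1 in pattern were found by the distance between log2 profiles over the 4 libraries, each centred on its mean, among 9459 genes with a mean of at least 100. For Yap1 these were Fry, the homologue of Drosophila furry, at 4111 and 4207 normalized counts in the knockout against 8722 and 8180 (distance 0.024), Eif4ebp2, which encodes a translational repressor (0.038), and the deubiquitinase gene Usp20 (0.052). For Wwtr1 they were Megf9, at 1020 and 908 against 1222 and 1439 (0.036), Smco4 (0.057) and Timm17b, a gene of the mitochondrial import machinery (0.062). The median distance over the genes compared was 1.002 for Yap1 and 0.586 for Wwtr1, and 16 and 15 genes lay within 0.1. Such distances over 4 libraries are a description only.

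The genes around these 8 were taken from 4 lists. Of 23 Hippo kinases and scaffolds, 3 fell, 0 rose and 20 did not pass, with a median log2 fold change of -0.19. The 3 were the large cadherin gene Fat4 (2784 and 2640 normalized counts against 8042 and 8013, log2 fold change -1.57, SE 0.10), Lats2, whose kinase inhibits YAP and TAZ (-0.77, SE 0.13), and the LIM protein gene Ajuba (-1.25, SE 0.24). Of 14 genes for retention in the cytoplasm or turnover of YAP and TAZ, 1 rose and 1 fell (median -0.04), and both encode 14-3-3 proteins. Ywhag had 3993 and 4027 counts against 2563 and 2547 (0.65, SE 0.09), and Ywhaq 405 and 379 against 590 and 566 (-0.56, SE 0.13). Next by p was Ywhae, a further 14-3-3 gene, which did not pass (0.37, limma adjusted p = 0.071).

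Of 10 nuclear cofactors only the nuclear receptor co-activator gene Ncoa3 passed, with 2426 and 2511 normalized counts in the knockout against 5068 and 4181, a log2 fold change of -0.90 with an SE of 0.12 (limma adjusted p = 0.0117). The next by p were the chromatin remodelling subunit gene Arid1a (-0.24) and the acetyltransferase gene Ep300 (-0.20), which did not pass. Of 22 genes in a YAP/TAZ target signature drawn from other tissues, 7 fell, 14 did not pass and 1 rose (Nuak2, which was picked out for its value), with a median log2 fold change of -0.16. The first by p were Crim1 (-1.12, SE 0.13), Fjx1 (-1.53, SE 0.26) and Lats2. Over these lists together, 11 of 66 tested genes fell (16.7%) and 2 rose (3.03%), beside 6.7% and 9.58% of all tested genes. The 2 became 6 after quantile normalization and 9 after rescaling to the same total. Leaving out wild-type replicate 2 left 2 that fell and 1 that rose, and the fits without any other single library called 0 genes, in the lists and over all genes.

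**Figure D5:**
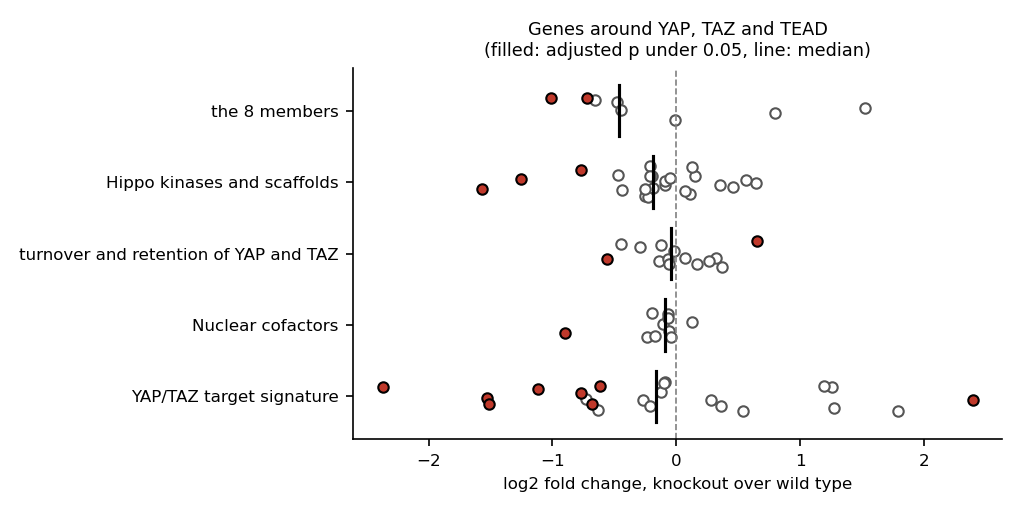
Log2 fold change, knockout over wild type, of the 8 genes and of the tested genes of 4 surrounding lists, filled where the limma adjusted p was under 0.05, with the median of each list as a line. The medians lie at -0.47, -0.19, -0.04, -0.09 and -0.16 from top to bottom, and the target signature has the widest range.

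The motif searched above stood in the promoter of all 4 of these genes that were lower in both knockout libraries (Yap1, Wwtr1, Tead3 and Vgll4). It was in 5 of the 6 genes with a promoter (83.3%) whatever their direction, so this does not link motif and direction. Of the 4 lower genes only Yap1 and Tead3 passed the test, and 32.1% of all tested genes were lower without overlap. The motif was also in the promoter of Vgll3, whose libraries overlapped, and not in that of Tead2, which was higher. Tead4, which was higher as well, had no promoter in the table, so Tead2 alone stands for the higher genes. Among all tested genes with a promoter in the table, the motif was in 19.4% of 738 called lower. It was in 16% of 1024 called higher and 14.3% of 8709 not called. Of the list genes with a promoter, it was in 7 of 19 Hippo kinase and scaffold, 1 of 9 turnover and retention, 1 of 8 nuclear cofactor and 6 of 14 target signature genes. These shares are given as a description, without a test.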

How the data were processed

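Libraries were made from total RNA with a stranded kit after removal of ribosomal RNA, per the labels' protocols. The submitters' processing notes list STAR 2.5.2b, featureCounts 1.5.1, DESeq2 1.14.1 and the build mm10/GRCm38, without roles; the strand setting and annotation are not given in the sources used. The authors deposited whole-number normalized counts, treated here as a score because their spacing shows division by a size factor and rounding. That spacing gave the estimated reads.

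Values were taken as log2(value + 1), genes with a mean of at least 10 were kept, and knockout was compared with wild type by limma 3.58.1 in R 4.3.3 (eBayes with an intensity trend, two-sided, Benjamini-Hochberg adjustment over 15058 genes, threshold 0.05). Fold changes on this scale understate the change of low genes. The procedure was also run on simulated data, in which every gene had the same spread beyond counting error. That run cannot give its error rate for these libraries. Intervals use limma's moderated degrees of freedom (3.96 prior and 2 residual). Exon lengths and positions come from GENCODE M21 (GRCm38), promoters from RefSeq. The genes, lists and tests were chosen with earlier results of these data known. Besides the 8 genes, the 3 genes nearest in pattern to Yap1 and to Wwtr1 and up to 3 of each list with the smallest p are named. Alternatives were other pseudocounts (0.5, 10), filters (none, 50), scalings, no trend, a replicate block, another length and leaving out each library.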

Additional observations from a re-analysis of the deposited data

How the results depend on the processing

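Without a filter on low values, and without the intensity trend, limma called 0 genes higher and 0 lower over all genes, the 8 genes and the surrounding lists (5472 and 4274 genes at an unadjusted p under 0.05), although the log2 fold change of Yap1 stayed at -1.01; the cause was not tested. With 1 library left out, the genes called higher ranged from 0 to 587 and those called lower from 0 to 153 (main counts 1443 and 1009), the lower calls among the 8 genes from 0 to 1, and the list genes from 0 to 2 lower and 0 to 1 higher. The log2 fold change of Yap1 then ranged from -1.04 to -0.97. Quantile normalization called 4 of the 8 genes lower, adding Wwtr1 (-0.42) and Vgll4 (-0.74), and 6 list genes higher. The list genes called higher were 9 at the same total. The replicate numbers are not said to mark shared animals, and the deviations of the libraries numbered 1 correlated at 0.12 across genes; with the replicate block 5 list genes were called higher and Yap1 stayed called (adjusted p = 0.00337). With the longest transcript as length, the Tead1 share of the TEAD sum was 57.2% (knockout) and 49% (wild type), the Wwtr1 to Yap1 ratio 3.13 and 2.18, the ratio of both to the TEAD sum 1.26 and 1.67, and the Vgll3 to Vgll4 ratio 1.24 and 0.989. The depth limits Tead4 most, with 12 estimated reads in 1 wild-type library.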
